A study of Saccharomyces cerevisiae with 18 samples.

Results

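The genes described here encode the protein-folding machinery of budding yeast and HSF1, the heat shock transcription factor that activates many of them. The 41 genes were listed by name and function, by a rule that uses no measured value, although earlier results of these data were known when the list was made: the cytosolic Hsp70, Hsp90 and Hsp40 chaperones with their partners, the disaggregase and small heat shock proteins, the chaperones of the mitochondrial matrix and the endoplasmic reticulum, the 8 subunits of the CCT ring, and HSF1. All 41 were found among the 6577 genes of the deposited expression matrix, and all 41 passed the filter on low values that left 5954 genes for testing. For this comparison, poly-A RNA was sequenced from 3 cultures of each of 3 genotypes, which gives 9 libraries, with S. pombe (fission yeast) cells mixed in as a spike-in. The question was how the RNA of these genes compares between cells with wild-type Spn1 and cells with either of 2 altered forms of this essential elongation factor and histone chaperone. Values are on the rlog scale, a log2 scale on which DESeq2 shrinks differences between libraries, most of all for genes with few reads, so that fold changes here understate those of low genes.

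All strains derive from BY4741, a MATa laboratory strain with his3delta1, leu2delta0, met15delta0 and ura3delta0. By the study's methods, the chromosomal SPN1 of each strain was replaced by LEU2, and the only Spn1 came from a HIS3 plasmid with wild-type SPN1, spn1 K192N (1 amino acid changed) or spn1 141–305 (a form without both ends of the protein), each behind the SPN1 promoter. The labels give the wild-type libraries the parental genotype without the plasmid and name a different strain number for each library. LEU2 RNA stood between 11.16 and 11.41 and HIS3 RNA between 12.97 and 14.89 over the 9 libraries, wild-type included, while URA3 and MET17 are listed at 0 in all. The a-specific genes STE2, BAR1 and STE6 had genotype means between 12.11 and 14.62, the a-factor genes MFA1 and MFA2 are listed at 0, and the alpha-specific genes MF(ALPHA)1, MF(ALPHA)2 and STE3 stood between 3.10 and 6.75. A further alpha-specific gene, SAG1, stood higher, between 9.78 and 10.01 in all libraries. Cells were grown in rich glucose medium to mid-exponential phase with no heat shock, so the inducible chaperones were measured in unstressed cells. SPN1 itself, which the plasmid carries, ranged over the libraries from 11.66 to 12.95 in wild-type, from 12.28 to 13.62 in spn1 K192N and from 11.06 to 11.79 in spn1 141–305. The spn1 141–305 form lacks part of the SPN1 coding sequence, so its values are not directly comparable with those of the full-length forms. The libraries differ in overall level: the median deviation of all tested genes from their means over the 9 libraries was 0.11, 0.05 and 0.02 in wild-type replicates 1, 2 and 3, 0.06, −0.05 and −0.06 in spn1 K192N, and −0.05, −0.04 and −0.03 in spn1 141–305. Replicate 1 of spn1 K192N thus lay among the wild-type libraries. The RNA was measured in bulk and scaled to the spike-in, so that less RNA of a gene in each cell and fewer cells holding it cannot be told apart. No counts are in the matrix, so depth is unknown, and the p-values measure the spread between 3 cultures per genotype.

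Chaperones help other proteins to fold, keep unfolded ones from clumping and hand them on for repair or destruction. Hsp70 proteins bind short exposed stretches in a cycle driven by ATP, J proteins (Hsp40) bring them substrates, exchange factors reset them, Hsp90 finishes the folding of kinases and receptors, and the CCT ring folds actin and tubulin in a closed chamber. In yeast, Hsf1 keeps a core of these genes active in growing cells and raises them when unfolded proteins build up, Msn2 and Msn4 add to several of them under stress, and Hac1 drives the chaperones of the endoplasmic reticulum.

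The promoter letters that these factors are known for are shown first, since the genes are grouped by them below. Of the genes shown, SSA1, SSA2 and SIS1 did not pass the test described below in any comparison. Hsf1 recognises inverted repeats of GAA, the heat shock element, here searched as TTCNNGAANNTTC and its reverse complement GAANNTTCNNGAA in the 500 bases before the start codon. It was found before 84 of 5564 tested protein-coding genes (1.51%) and before 13 of the 41 folding genes. The element that Hac1 recognises was searched as CAGCGTG and its reverse complement CACGCTG, which was found before 130 genes (2.34%) and before 3 of the 41, KAR2, LHS1 and STI1. The Msn2 and Msn4 element, AGGGG or CCCCT, is short and was found before 34.4% of genes and 12 of the 41. The sites below are from the R64 assembly of RefSeq, read 5′ to 3′ along the gene's strand, with the letters of the motif in capitals and 12 bases on each side. For each gene 1 match of a motif is shown. Further matches, some overlapping the one shown and others apart from it as in SSA1 and STI1, were left out.
HSP104, chrXII:88309-88345: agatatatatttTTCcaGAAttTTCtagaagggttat
SSA1, chrI:141771-141807: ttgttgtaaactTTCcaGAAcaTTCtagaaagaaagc
SSA2, chrXII:97694-97730: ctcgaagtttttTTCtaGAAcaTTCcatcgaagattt
SIS1, chrXIV:619885-619921: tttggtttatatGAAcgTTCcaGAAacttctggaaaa
STI1, Hsf1 element, chrXV:380825-380861: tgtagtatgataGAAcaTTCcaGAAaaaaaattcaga
STI1, Hac1 element, chrXV:380653-380683: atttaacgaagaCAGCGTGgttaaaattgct
KAR2, Hsf1 element, chrX:381110-381146: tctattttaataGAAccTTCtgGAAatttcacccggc
KAR2, Hac1 element, chrX:381155-381185: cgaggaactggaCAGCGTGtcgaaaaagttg
LHS1, Hac1 element, chrXI:296319-296349: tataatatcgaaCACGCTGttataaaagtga
A match is a description of the letters and does not show that a factor binds there. HSP26 and HSP82 hold no match to the searched heat shock element in this window, which says only that this arrangement of letters is not there.

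Few of the 41 genes passed the test against wild-type after adjustment for the number of genes. In spn1 K192N, KAR2 was called lower and no gene higher. In spn1 141–305, HSP104, STI1 and LHS1 were called lower and HSP26 higher. Between the mutants none was called. A call is an adjusted p below 0.05 (Benjamini-Hochberg over all 5954 tested genes, limma, two-sided). Of all tested genes 4.80% were called lower and 0.403% higher in spn1 K192N, against 1 and 0 of the 41. The corresponding background in spn1 141–305 was 18.8% lower and 0.453% higher, against 3 and 1 of the 41. At an unadjusted p below 0.05 by limma, 13 of the 41 differed in spn1 K192N and 15 in spn1 141–305, against 23.8% and 35.8% of all tested genes. Between the mutants 1.28% of all genes were lower and 0.621% higher in spn1 141–305. Beside the 0 of 41 there, 2 genes had an unadjusted p below 0.05 by limma, SIS1 and CPR7, against 12.6% of all tested genes.

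**Figure D1:**
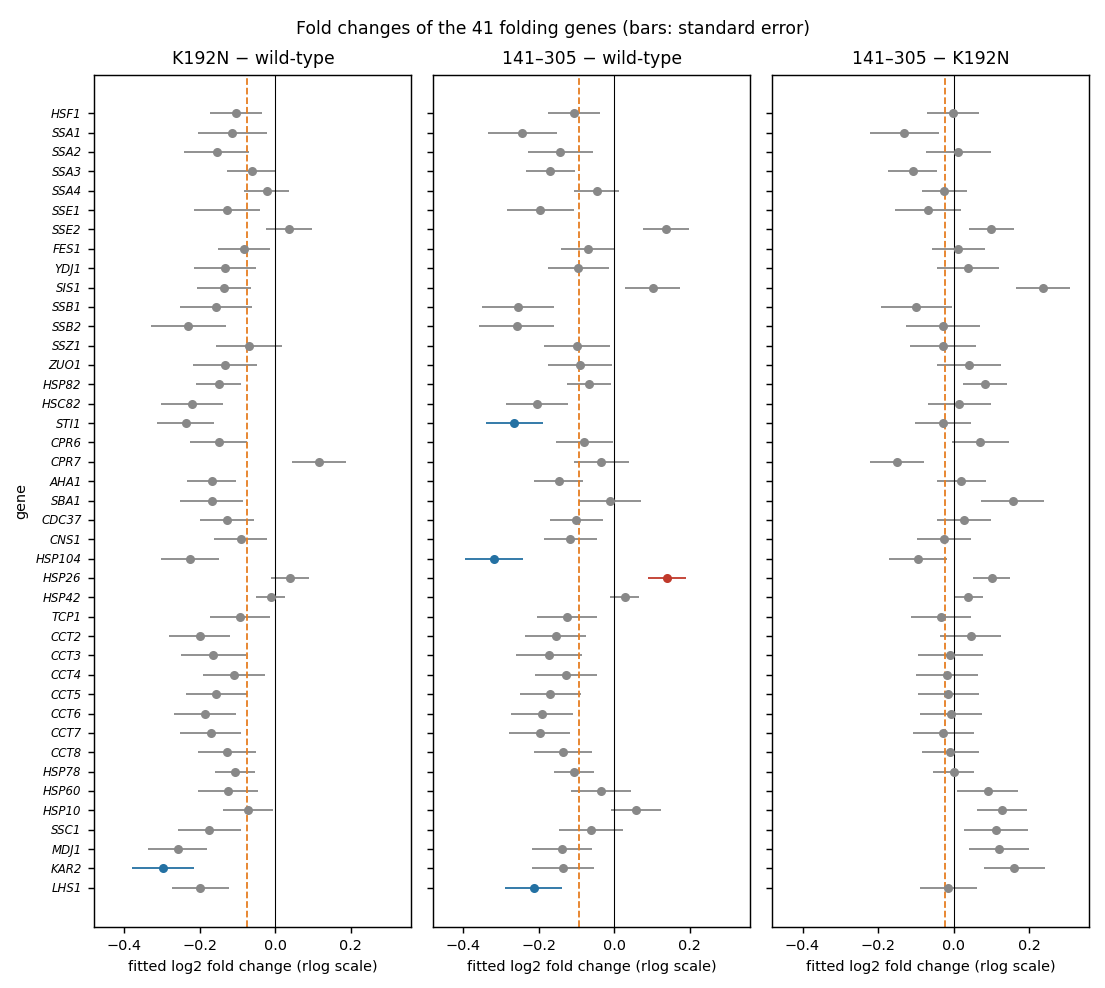
Fitted log2 fold change on the rlog scale (points) with its standard error (bars) for the 41 folding genes in spn1 K192N against wild-type, spn1 141–305 against wild-type and spn1 141–305 against spn1 K192N, 3 libraries per genotype. Blue points were called lower, red points higher, and the dashed line is the median of all 5954 tested genes, at −0.08, −0.09 and −0.02. KAR2 is blue in the first comparison, HSP104, STI1 and LHS1 are blue and HSP26 is red in the second, and no gene is coloured in the third.

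The changes that were not called lay mostly on the same side. Of the 41 genes, 38 had a fitted log2 fold change below 0 in spn1 K192N, with a median of −0.13, and 36 had one in spn1 141–305, with a median of −0.13. Among all tested genes it was below 0 for 4977 in spn1 K192N, with a median of −0.08, and for 5140 in spn1 141–305, with a median of −0.09. The folding genes thus lay on the side of the bulk of the transcriptome. The wild-type libraries are shared by both comparisons. Between the mutants, 20 of the 41 lay below 0 and the median was 0.00030, beside 3773 of all tested genes with a median of −0.02. With every library centred on its median gene, the medians of the 41 were −0.06 in spn1 K192N and −0.02 in spn1 141–305. For 21 of the 41 genes the highest spn1 141–305 library was under the lowest wild-type library, which held for 45.0% of all genes. In spn1 K192N it held for 8 of the 41 and for 18.8% of all. Between the mutants the spn1 141–305 libraries were all above those of spn1 K192N for 3 of the 41 (HSP82, SIS1 and KAR2), against 4.55% of all genes, and all below for none of the 41, against 716 of the 5954.

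**Figure D2:**
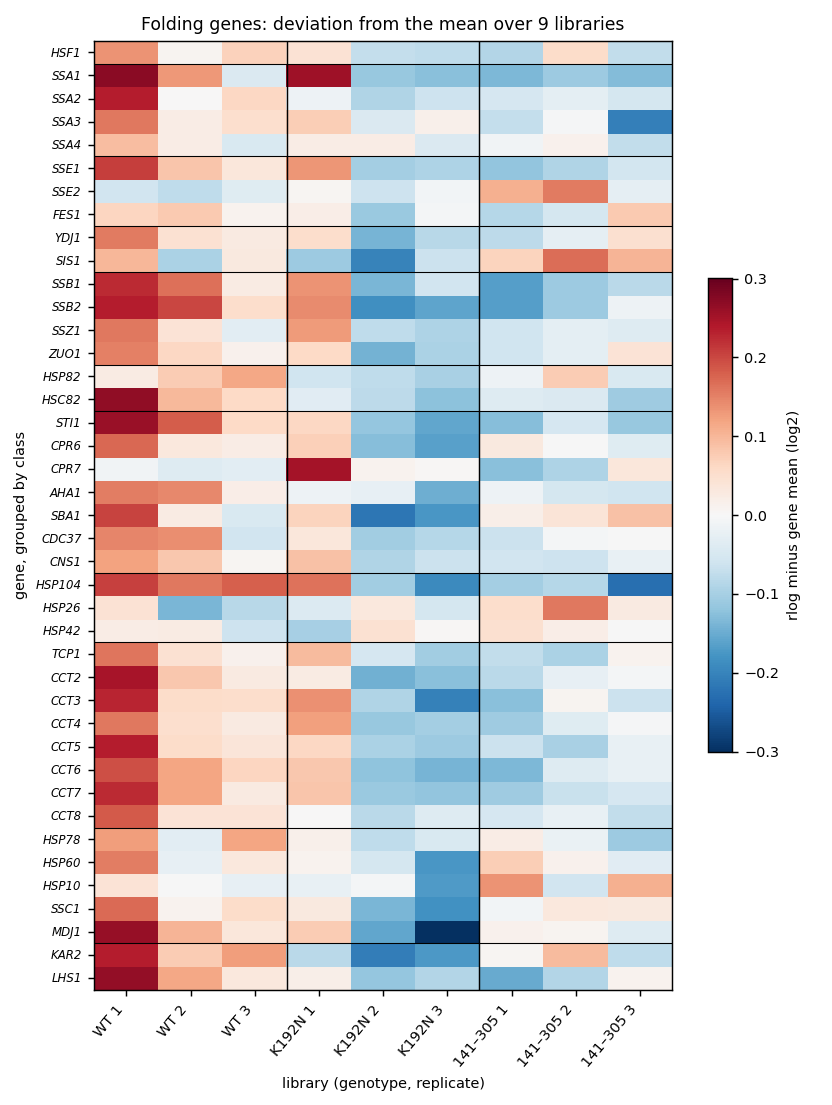
Deviation of each rlog value from the gene's mean over the 9 libraries (colour, log2) for the 41 folding genes (rows, grouped by class) in replicates 1 to 3 of each genotype (columns). Wild-type replicate 1 is red for most genes, with a median deviation of 0.16, spn1 K192N replicates 2 and 3 are blue for most, with medians of −0.10 and −0.10, and spn1 K192N replicate 1 has a median of 0.05.

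HSF1 (YGL073W, chromosome VII from 368753 to 371254) encodes the activator of the heat shock genes. Its rlog values were 10.07, 9.94 and 10.00 in wild-type, 9.98, 9.86 and 9.86 in spn1 K192N, and 9.84, 9.99 and 9.86 in spn1 141–305. The 3 genotypes overlapped. The fitted log2 fold change was −0.11 in either mutant (standard error 0.07, adjusted p = 0.345 for spn1 K192N and 0.265 for spn1 141–305, limma), and none of 19 alternative fits called it in any comparison. Among the other regulators fixed for comparison, HAC1, which encodes the activator of the unfolded protein response of the endoplasmic reticulum, and IRE1, the kinase and nuclease that splices HAC1 RNA, were called lower in both mutants. HAC1 RNA stood at 12.74, 12.70 and 12.56 in wild-type, 12.61, 12.21 and 12.27 in spn1 K192N, and 12.34, 12.37 and 12.44 in spn1 141–305. All spn1 141–305 libraries lay below wild-type, and spn1 K192N replicate 1 overlapped it. IRE1 stood at 10.95, 10.91 and 10.82 in wild-type, from 10.52 to 10.71 in spn1 K192N and from 10.52 to 10.68 in spn1 141–305, with no overlap between wild-type and either mutant. The log2 fold change of HAC1 was −0.30 in spn1 K192N (adjusted p = 0.0486) and −0.29 in spn1 141–305 (adjusted p = 0.0293). That of IRE1 was −0.29 (adjusted p = 0.0189) and −0.30 (adjusted p = 0.00684, limma). In the 9 fits that left out 1 library, HAC1 was called in 2 for spn1 K192N (adjusted p up to 0.272) and in 4 for spn1 141–305 (up to 0.164), and IRE1 in 5 (up to 0.144) and 8 (up to 0.0575), each with the highest adjusted p without wild-type replicate 1. By limma, the HAC1 call in spn1 K192N was also lost without the filter (adjusted p = 0.0655) and without the variance trend (0.0837). It was lost too with only the 2 genotypes compared (0.0589). For spn1 141–305 the HAC1 call was also lost with centred libraries (0.0598) and without the trend (0.0518). The stress activators MSN4 and SKN7 were called lower in spn1 141–305, with −0.25 and −0.26 (SKN7 in 4 of the 9 such fits), and had −0.02 and −0.22 in spn1 K192N without a call. MSN4 was chosen after its values were seen. Of the 7 regulators in the comparison list, 2 were called lower in spn1 K192N and 4 in spn1 141–305. Of all tested genes 4.80% and 18.8% were. By coding length, IRE1, MSN2 and YAP1 lie in the top quartile, where 45.0% of genes were called lower in spn1 141–305. MSN4, SKN7 and RPN4 lie in the third quartile, with 19.6%, and HAC1 in the bottom quartile, with 4.27%. The part of length in these calls was not tested. The regulators RPN4, MSN2 and YAP1 were not called, with 0.04, −0.07 and −0.17 in spn1 K192N and −0.07, −0.09 and −0.16 in spn1 141–305. HSF1 and the called regulators were not compared with each other by a test.

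The endoplasmic reticulum holds 2 of the 41 genes, and each was called lower in 1 mutant, KAR2 in spn1 K192N and LHS1 in spn1 141–305. Of all tested genes, 4.80% were called lower in spn1 K192N and 18.8% in spn1 141–305. KAR2 (YJL034W, chromosome X from 381327 to 383375) encodes the Hsp70 of this compartment, known as BiP in mammals, which pulls proteins into the lumen and folds them. KAR2 RNA stood at 13.25, 13.09 and 13.14 in wild-type, 12.93, 12.81 and 12.84 in spn1 K192N, and 13.02, 13.11 and 12.94 in spn1 141–305. Every spn1 K192N library lay below every library of the other 2 genotypes, whereas spn1 141–305 overlapped wild-type. The log2 fold change was −0.30 in spn1 K192N (standard error 0.08, −18.7% on the rlog scale, adjusted p = 0.0297, limma) and −0.14 in spn1 141–305 (adjusted p = 0.229). The difference between the mutants, 0.16, did not pass the test (adjusted p = 0.430). In the fits that left out 1 library the call of KAR2 held in 2 of 9, without spn1 K192N replicate 1 and without spn1 141–305 replicate 3, and its fold change ran from −0.34 to −0.25 with an adjusted p of up to 0.209. It was also lost with only the 2 genotypes compared (adjusted p = 0.0743). LHS1 (YKL073W, chromosome XI from 296430 to 299075) encodes the exchange factor that resets Kar2, itself a distant Hsp70. LHS1 RNA stood at 10.87, 10.72 and 10.64 in wild-type, 10.62, 10.49 and 10.52 in spn1 K192N, and 10.46, 10.52 and 10.62 in spn1 141–305. Every library of either mutant lay below every wild-type library. The log2 fold change was −0.20 in spn1 K192N (adjusted p = 0.111) and −0.21 in spn1 141–305 (adjusted p = 0.0456, limma), of which only the latter was called, and the mutants differed by −0.01 (adjusted p = 0.979). The call was made in 3 of the 9 fits that left out 1 library, without wild-type replicate 3, spn1 K192N replicate 1 or spn1 K192N replicate 3, and the adjusted p reached 0.249 without wild-type replicate 1. It was also lost without the filter (adjusted p = 0.0514), with centred libraries (−0.11, adjusted p = 0.149), with adjustment for coding length (−0.14, adjusted p = 0.138) and without both wild-type replicate 1 and spn1 K192N replicate 1 (adjusted p = 0.0712). Of 14 other genes of this compartment, among them disulfide isomerases and the oxidase ERO1, none was called in spn1 K192N, where 6 had an unadjusted p below 0.05 by limma (23.8% of all tested genes did), and JEM1, a J protein of Kar2, was called lower in spn1 141–305 (−0.21, adjusted p = 0.0307). Their median was −0.13 in either mutant.

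KAR2, LHS1 and STI1, whose Hac1 elements are shown above, are those of the 41 that hold it. Of these 3 genes, 1 was called lower in spn1 K192N (KAR2) and 2 in spn1 141–305 (LHS1 and STI1). Of the other 38, 0 and 1 were. The motifs were chosen for display after the values were seen. Their fold changes were between −0.30 and −0.20 in spn1 K192N and between −0.27 and −0.14 in spn1 141–305, where the other 38 genes had medians of −0.13 and −0.11. Over all scanned genes with this element, 3.85% were called lower in spn1 K192N and 16.9% in spn1 141–305, against 4.92% and 19.8% of all scanned genes. For the heat shock element the median of the 13 genes that hold it was −0.13 in spn1 K192N and −0.14 in spn1 141–305, beside −0.14 and −0.12 for the 28 that do not. Of the 13, 1 was called lower in spn1 K192N (KAR2) and 2 in spn1 141–305 (HSP104 and STI1), and of the 28, 0 and 1. Over all scanned genes with the heat shock element, 4.76% and 21.4% were called lower, against 4.92% and 19.8% of all scanned genes. For the Msn2 and Msn4 element the medians of the 12 genes that hold it were −0.13 and −0.06, beside −0.13 and −0.14 for the 29 that do not. Of the 12, 0 and 1 were called lower, and of the 29, 1 and 2. Over all scanned genes with the Msn2 and Msn4 element, 5.18% and 18.9% were called lower, against the same 4.92% and 19.8%.

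HSP104, HSP26 and HSP42 encode proteins that deal with aggregates, and in spn1 141–305 HSP104 was called lower, HSP26 higher and HSP42 neither. Hsp104 is the ring-shaped ATPase that pulls single chains out of aggregates together with Hsp70 and is needed for yeast to survive extreme heat. HSP104 (YLL026W, chromosome XII from 88623 to 91349) stood at 9.94, 9.89 and 9.91 in wild-type, 9.89, 9.62 and 9.54 in spn1 K192N, and 9.63, 9.64 and 9.50 in spn1 141–305. The wild-type libraries lay close together, all spn1 141–305 libraries lay below them, and spn1 K192N replicate 1 lay within them. The log2 fold change in spn1 141–305 was −0.32 (standard error 0.08, −19.9% on the rlog scale, adjusted p = 0.00563, limma), the lowest value of the 41 genes in that comparison. In spn1 K192N it was −0.23 (adjusted p = 0.0782), and the mutants differed by −0.09 (adjusted p = 0.697). HSP104 was called in 8 of the 9 fits that left out 1 library, and without wild-type replicate 1 its adjusted p was 0.0534.

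Hsp26 and Hsp42 are small heat shock proteins that bind unfolding proteins and hold them in a form that Hsp104 and Hsp70 can resolve. HSP26 (YBR072W, chromosome II from 382030 to 382674) stood at 6.89, 6.70 and 6.76 in wild-type, 6.80, 6.87 and 6.79 in spn1 K192N, and 6.90, 7.00 and 6.87 in spn1 141–305. The spn1 141–305 libraries overlapped wild-type, since wild-type replicate 1 lay above the lowest of them. HSP26 was called higher in spn1 141–305, with a log2 fold change of 0.14 (standard error 0.05, adjusted p = 0.0473, limma), and had 0.04 in spn1 K192N (adjusted p = 0.639). The call was lost without wild-type replicate 2, without wild-type replicate 3 and without any 1 of the spn1 141–305 libraries, and also without the filter, without the variance trend and with adjustment for coding length or mean rlog. HSP42 stood between 5.77 and 5.92 in all 9 libraries, the lowest level of the 41 genes, with overlapping genotypes and fold changes of −0.01 and 0.03.

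**Figure D3:**
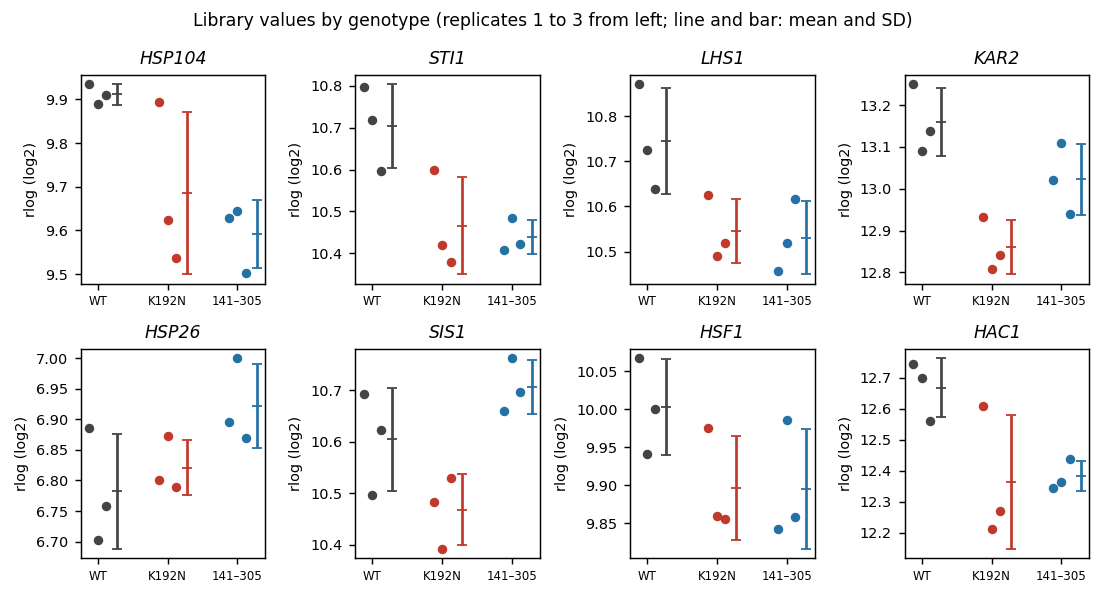
Rlog values (log2) of HSP104, STI1, LHS1, KAR2, HSP26, SIS1, HSF1 and HAC1 in the 9 libraries, by genotype, with replicates 1 to 3 from left to right and the mean and SD (n = 3) beside them. The vertical axes differ between panels and do not start at 0. The spn1 141–305 libraries of HSP104, STI1, LHS1 and HAC1 lie below all wild-type libraries, and those of HSP26 overlap them.

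The cytosolic Hsp70 genes of the SSA family were not called in either mutant, and 3 of the 4 lay below wild-type in every spn1 141–305 library, as did 45.0% of all genes. Ssa1 and Ssa2 are the main Hsp70 proteins of growing cells, and SSA3 and SSA4 are known as stress-induced members. By limma, none of the 4 in spn1 K192N and 2 in spn1 141–305 had an unadjusted p below 0.05, where 23.8% and 35.8% of all tested genes did. SSA1 (YAL005C) stood at 11.64, 11.50 and 11.32 in wild-type, 11.62, 11.25 and 11.24 in spn1 K192N, and 11.23, 11.26 and 11.24 in spn1 141–305. SSA2 (YLL024C) stood at 14.90, 14.66 and 14.72 in wild-type, 14.65, 14.57 and 14.60 in spn1 K192N, and 14.61, 14.63 and 14.61 in spn1 141–305. Both had their lowest wild-type library above all spn1 141–305 libraries. SSA1 had a log2 fold change of −0.24 in spn1 141–305 (adjusted p = 0.0578, limma) and −0.11 in spn1 K192N (adjusted p = 0.440), and SSA2 had −0.14 (adjusted p = 0.233) and −0.16 (adjusted p = 0.271). The coding sequences of SSA1 and SSA2 are 96.4% identical and share 63.6% of their stretches of 31 bases, so that the split of reads between them is uncertain. Taken as 1 feature the pair had −0.15 in either mutant (adjusted p = 0.289 for spn1 K192N and 0.207 for spn1 141–305). SSA3 had −0.06 and −0.17, and SSA4 had −0.02 and −0.05.

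Among the exchange factors that release ADP from Hsp70, the constitutive SSE1 and its stress-linked paralog SSE2 lay on opposite sides of wild-type in spn1 141–305. SSE1 stood between 14.46 and 14.64 in wild-type and between 14.31 and 14.37 in spn1 141–305, with no overlap (−0.20, adjusted p = 0.109, limma). SSE2 stood at 8.57, 8.55 and 8.60 in wild-type and at 8.74, 8.79 and 8.60 in spn1 141–305, where every library lay above wild-type, which held for 1.60% of all genes (0.14, adjusted p = 0.106). Neither was called. FES1 had −0.07 in spn1 141–305 and −0.08 in spn1 K192N with overlapping libraries.

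The J proteins Ydj1 and Sis1 deliver substrates to the SSA proteins, and Sis1 is essential and known to help Hsp70 hold Hsf1 back in unstressed cells. SIS1 (YNL007C, chromosome XIV from 618507 to 619565) stood at 10.69, 10.50 and 10.62 in wild-type, 10.48, 10.39 and 10.53 in spn1 K192N, and 10.66, 10.76 and 10.70 in spn1 141–305. Every spn1 141–305 library lay above every spn1 K192N library, and wild-type overlapped both. The difference between the mutants, 0.24 (standard error 0.07, adjusted p = 0.101, limma), was the largest of the 41 genes in that comparison and was not called. It was called in 4 of 19 alternative fits. These included the fit with every library centred on its median gene (0.26, adjusted p = 0.0108) and that without spn1 K192N replicate 1 (adjusted p = 0.0332). Of the 9 fits that left out 1 library, only 1 called it, and the adjusted p reached 0.376 without spn1 141–305 replicate 2. YDJ1 had −0.13 in spn1 K192N and −0.10 in spn1 141–305.

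The Hsp70 proteins of the ribosome, Ssb1 and Ssb2, bind chains as they leave the exit tunnel, where Ssz1 and Zuo1 form the complex that stimulates them. All 4 genes lay below 0 in both mutants and none was called, with an unadjusted p below 0.05 by limma for 1 in spn1 K192N (23.8% of all tested genes) and 2 in spn1 141–305 (35.8%). SSB1 (YDL229W) stood at 17.05, 16.99 and 16.86 in wild-type, 16.97, 16.69 and 16.77 in spn1 K192N, and 16.66, 16.72 and 16.75 in spn1 141–305. SSB2 (YNL209W) stood at 16.75, 16.71 and 16.56 in wild-type, 16.65, 16.33 and 16.35 in spn1 K192N, and 16.35, 16.40 and 16.50 in spn1 141–305. For both, wild-type lay above all spn1 141–305 libraries, as for 45.0% of all genes, and overlapped spn1 K192N. The log2 fold change of SSB1 was −0.16 (adjusted p = 0.309) and −0.26 (adjusted p = 0.0557), and that of SSB2 −0.23 (adjusted p = 0.156) and −0.26 (adjusted p = 0.0611, limma), in spn1 K192N and spn1 141–305. These coding sequences are 97.5% identical, and as 1 feature the pair had −0.19 (adjusted p = 0.236) and −0.26 (adjusted p = 0.0618). Per kilobase of coding sequence in wild-type, SSB1 and SSB2 were the most abundant of the 41 on the log2 scale, at 16.09 and 15.79, and HSP42 the least, at 5.69. SSZ1 had −0.07 and −0.10, and ZUO1 −0.13 and −0.09.

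Both Hsp90 genes lay below wild-type in every spn1 K192N library, as did 18.8% of all genes, and neither was called. HSC82 is the constitutive and HSP82 the heat-induced copy of this essential chaperone. HSC82 (YMR186W) stood at 13.78, 13.62 and 13.58 in wild-type, 13.48, 13.44 and 13.39 in spn1 K192N, and 13.48, 13.47 and 13.41 in spn1 141–305. HSP82 (YPL240C) stood at 8.67, 8.72 and 8.76 in wild-type, 8.58, 8.57 and 8.54 in spn1 K192N, and 8.63, 8.72 and 8.60 in spn1 141–305. HSC82 lay below wild-type in both mutants, while HSP82 overlapped wild-type in spn1 141–305. HSC82 had −0.22 in spn1 K192N (adjusted p = 0.108) and −0.20 in spn1 141–305 (adjusted p = 0.0754), and HSP82 had −0.15 (adjusted p = 0.120) and −0.07 (adjusted p = 0.422, limma). The sequences are 91.7% identical and share 15.5% of their stretches of 31 bases, and as 1 feature the pair had −0.22 (adjusted p = 0.111) and −0.20 (adjusted p = 0.0808).

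Of the 7 cochaperones that steer Hsp90, only STI1 was called, in spn1 141–305, where 18.8% of all tested genes were called lower. Sti1 bridges Hsp70 and Hsp90 so that a client passes from one to the other. STI1 (YOR027W, chromosome XV from 381053 to 382822) stood at 10.80, 10.72 and 10.60 in wild-type, 10.60, 10.42 and 10.38 in spn1 K192N, and 10.41, 10.49 and 10.42 in spn1 141–305. All spn1 141–305 libraries lay below wild-type, and spn1 K192N replicate 1 just overlapped it. The log2 fold change was −0.27 in spn1 141–305 (standard error 0.07, −16.8% on the rlog scale, adjusted p = 0.0157, limma) and −0.24 in spn1 K192N (adjusted p = 0.0588). The call in spn1 141–305 held in 5 of the 9 fits that left out 1 library, and was lost without wild-type replicate 1 (adjusted p = 0.113), wild-type replicate 2, spn1 141–305 replicate 1 or spn1 141–305 replicate 3.

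The prolyl isomerases Cpr6 and Cpr7 bind the tail of Hsp90. CPR7 (YJR032W) stood at 9.63, 9.60 and 9.61 in wild-type, 9.89, 9.65 and 9.64 in spn1 K192N, and 9.52, 9.55 and 9.68 in spn1 141–305. It was the single gene of the 41 with every spn1 K192N library above wild-type, which held for 1.44% of all genes, and spn1 K192N replicate 1 stood apart. Its log2 fold change was 0.11 (adjusted p = 0.327) and 0.03 without that library, and between the mutants it was −0.15 (adjusted p = 0.386, limma). With libraries centred on the median gene it was called higher in spn1 K192N (0.19, adjusted p = 0.0419), the only 1 of 19 alternative fits to call it there. SBA1, the yeast p23 that holds Hsp90 closed, had −0.17 in spn1 K192N against −0.01 in spn1 141–305, a difference of 0.16 between them (adjusted p = 0.459). AHA1, which speeds the ATPase of Hsp90, lay below wild-type in every library of both mutants (−0.17, adjusted p = 0.116, and −0.15, adjusted p = 0.101). CPR6, the kinase-loading CDC37 and CNS1 had fold changes between −0.15 and −0.08 in both mutants.

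The 8 subunits of the CCT ring had log2 fold changes below 0 in both mutants, between −0.20 and −0.09 in spn1 K192N and between −0.20 and −0.13 in spn1 141–305, with medians of −0.16 and −0.16. Every spn1 141–305 library lay below every wild-type library for all 8, against 45.0% of all genes. The 8 genes share these libraries. With every library centred on its median gene, their fold changes in spn1 141–305 ran from −0.10 (CCT7) to −0.02 (TCP1), without a call. Every spn1 K192N library did so for CCT2 and CCT8, against 18.8% of all genes. None was called, and by limma 3 of the 8 had an unadjusted p below 0.05 in either mutant, where 23.8% (spn1 K192N) and 35.8% (spn1 141–305) of all tested genes did. CCT2 (YIL142W) stood at 12.40, 12.23 and 12.18 in wild-type, 12.18, 12.01 and 12.03 in spn1 K192N, and 12.07, 12.13 and 12.15 in spn1 141–305 (−0.20, adjusted p = 0.132, and −0.16, adjusted p = 0.164). CCT7 (YJL111W) stood at 12.60, 12.49 and 12.40 in wild-type, 12.46, 12.26 and 12.25 in spn1 K192N, and 12.26, 12.31 and 12.32 in spn1 141–305 (−0.17, adjusted p = 0.199, and −0.20, adjusted p = 0.0797). The subunits also stood at like levels, with wild-type means between 12.21 and 12.83. Of prefoldin, the 6-subunit complex that hands actin and tubulin chains to the ring, none was called, 1 had an unadjusted p below 0.05 in spn1 K192N and 0 in spn1 141–305 by limma (23.8% and 35.8% of all tested genes), and the medians were −0.08 and −0.03.

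In the mitochondrial matrix, Ssc1 is the Hsp70 that pulls in and folds proteins, Mdj1 its J protein, Hsp60 and Hsp10 the folding chamber and its lid, and Hsp78 the disaggregase. All 5 genes lay below 0 in spn1 K192N, with a median of −0.13, and 4 of 5 in spn1 141–305, with a median of −0.06. MDJ1 (YFL016C) stood at 9.79, 9.63 and 9.56 in wild-type, 9.60, 9.37 and 9.23 in spn1 K192N, and 9.54, 9.54 and 9.49 in spn1 141–305. The spn1 K192N libraries spread widely and their highest overlapped wild-type. MDJ1 had −0.26 in spn1 K192N (adjusted p = 0.0513, limma) and −0.14 in spn1 141–305 (adjusted p = 0.207). In spn1 K192N it was called lower in 10 of 19 alternative fits, beside 11 of 19 for KAR2. Of the 9 fits that left out 1 library, 3 called MDJ1 there, with adjusted p from 9.67e-05 to 0.361 (limma). The difference between the mutants was above 0 for all 5 genes, from 0.00030 for HSP78 to 0.13 for HSP10 (adjusted p = 0.445, limma). It was 0.12 for MDJ1 (adjusted p = 0.594). Of all 5954 tested genes, 2181 lay above 0 in this comparison, with a median of −0.02. None of the 5 was called in the main fit of any comparison. By limma, 2 had an unadjusted p below 0.05 in spn1 K192N and 0 in spn1 141–305 or between the mutants. Of all tested genes, 23.8%, 35.8% and 12.6% did.

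The share of genes called lower moved with the length and the level of the genes, and the chaperones are mostly long and abundant. Of all protein-coding genes in the top quartile of coding length, from 1911 bases, 45.0% were called lower in spn1 141–305, against 4.27% in the bottom quartile. The chaperones placed 14 in the top quartile, of which 2 were called (HSP104 and LHS1), 16 in the third, of which 1 was called (STI1), and 11 in the lower quartiles with no call. By mean rlog, 22 of the 41 lay in the top quartile, where 28.8% of all genes and none of the 22 were called lower, although their median was −0.14 beside −0.16 for all genes there. Across the 41 genes, which share the libraries, Spearman's rho of the fold change in spn1 141–305 was −0.47 with coding length and −0.43 with mean rlog, given as a description. The part of length and level in the changes of single genes was not tested.

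**Figure D4:**
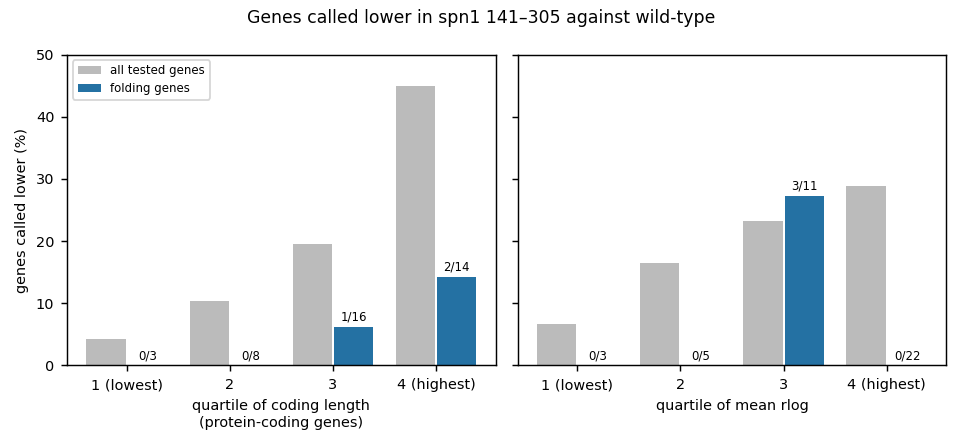
Percentage of genes called lower in spn1 141–305 against wild-type by quartile of coding length (left) and of mean rlog (right). Grey bars are all tested genes, on the left only the protein-coding ones, and blue bars are the folding genes. Above each blue bar stands the number called of the number in the quartile. The grey bars rise from 4.27% to 45.0% with length and from 6.65% to 28.8% with level, while the blue bars stand on 3 to 22 genes each.

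The counts rested on single libraries. Without spn1 K192N replicate 1, 24 of the 41 genes were called lower in spn1 K192N, as were 34.1% of all tested genes. These were 6 of the 8 CCT subunits, 5 of the 7 Hsp90 cochaperones, 3 of the 4 ribosome-associated genes, both Hsp90 genes, both genes of the endoplasmic reticulum and 6 others, and HSF1 was not among them. In spn1 141–305 the same omission gave 14 of the 41 and 34.2% of all genes called lower. Without wild-type replicate 1, none of the 41 was called lower in either mutant, where 0.840% and 4.67% of all genes were. With wild-type replicate 1 and spn1 K192N replicate 1 both left out, 14 were called lower in spn1 K192N and 6 in spn1 141–305, beside 18.8% and 20.5% of all genes.

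**Figure D5:**
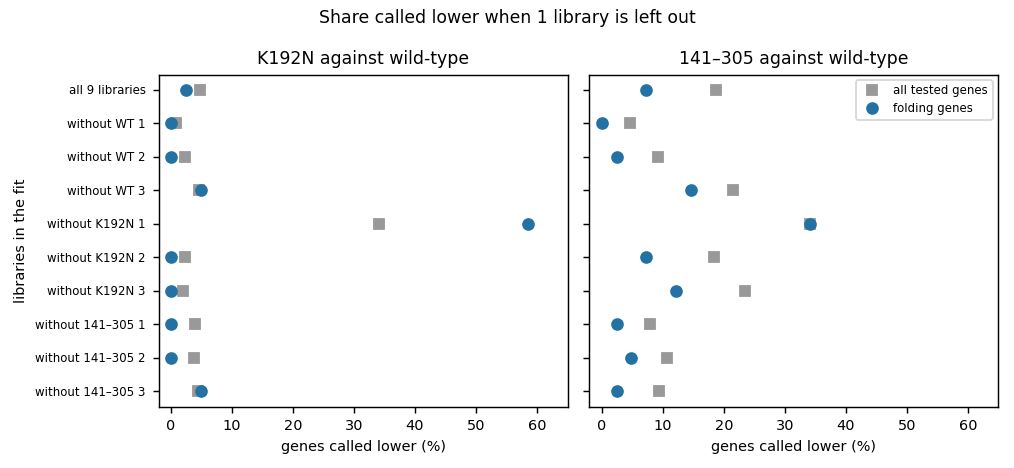
Percentage of genes called lower (horizontal axis) in spn1 K192N (left) and spn1 141–305 (right) against wild-type with all 9 libraries and with each library left out (rows), for all tested genes (grey squares) and the folding genes (blue circles). Without spn1 K192N replicate 1 the squares stand at 34.1% and 34.2%, and without wild-type replicate 1 the circles stand at 0.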

How the data were processed

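RNA-seq was analysed for 9 of the 18 samples of the series, 3 per genotype. The other 9 are chromatin samples, which were not analysed here. The authors quantified transcripts with Salmon 1.9 on the cDNA of both yeasts, scaled the libraries with DESeq2 1.30.1 (R 4.0.3) size factors from the S. pombe genes, and deposited log2 values made by the rlog function of DESeq2. The 3 deposited comparison tables hold the authors' fold changes and p-values and were not used. Depth is unknown.

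Libraries were assigned by their labels. The labels' wild-type genotype differs from the study's strain description, which was used. Limma 3.58.1 in R 4.3.3 was fitted to the rlog values of all 9 libraries with 1 mean per genotype and eBayes with a trend. Tests were two-sided, with Benjamini-Hochberg adjustment over the 5954 genes whose mean rlog was at least log2(10), and the threshold was 0.05. The fit was tested on simulated data: of 200 genes among 5954 given a log2 change of 0.5 in spn1 141–305, 190 were recovered and 7 others called, and the unchanged spn1 K192N comparison gave 0 calls. The planted change is larger than any of the 41 genes, of which the largest was −0.32. Noise was drawn separately for each gene, without the shifts of whole libraries in the data. These counts therefore do not give the power or the error rate for the 41 genes. Names, positions and sequences came from RefSeq's R64 assembly, and 5896 identifiers matched.

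The 41 genes, their classes and the 59 other folding genes were chosen with earlier results of these data known. Values are given for HSF1, the near-identical pairs, the 8 genes with the largest absolute fold change in each comparison, and the 3 called genes of the other list with the largest change. HSP26, HSP42, SSE1, SSE2, JEM1, MSN4, RPN4, MSN2 and YAP1 were added after their values were seen. Alternatives covered the filter, scaling, variance model, libraries, coding length, replicate block and threshold. The adjustment for mean rlog and the joint omission of 2 libraries were chosen after seeing the data.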

Additional observations from a re-analysis of the deposited data

How the results depend on the processing

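No named fold change was called in opposite directions under any alternative. In spn1 K192N, 1 gene called lower became 3 with a minimum of log2(100), 4 with robust eBayes, 2 with adjustment for coding length, 2 with adjustment for mean rlog, 14 without both wild-type replicate 1 and spn1 K192N replicate 1, and 0 at an adjusted p below 0.01, and leaving out 1 library gave 0 to 24. With only the 2 genotypes compared it stayed at 1, but MDJ1 was called in place of KAR2. The 0 called higher became 1 with centred libraries. In spn1 141–305, 3 genes called lower became 7 with the minimum of log2(100), 5 without a trend, 6 with robust eBayes, 14 with only the 2 genotypes compared, 6 without both libraries and 1 at 0.01, and leaving out 1 library gave 0 to 14. The 1 called higher became 0 without a filter, without a trend, with adjustment for mean rlog and at 0.01, 3 with centred libraries (HSP26, SSE2 and SIS1) and 2 with only the 2 genotypes, and leaving out 1 library gave 0 to 1. With adjustment for coding length it stayed at 1, but SSE2 was called in place of HSP26. Between the mutants, 0 called higher became 1 with centred libraries, 1 with adjustment for mean rlog and 3 without both libraries, and leaving out 1 library gave 0 to 2. The median in spn1 141–305 moved from −0.13 to −0.025 with centred libraries, by which all tested genes moved from −0.09 to 0.01, and their split went from 1120 lower and 27 higher to 494 and 189. The cause of these shifts was not tested.

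Replicate numbers are shared between genotypes, but samples of the same number did not deviate together, with correlations from −0.28 to 0.25. With the replicate block, 4 genes were called lower in spn1 K192N and 5 in spn1 141–305. Depth is unknown, and rlog shrinkage limits what low genes such as HSP26 and HSP42 can show.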

Other observations

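Of the 59 other genes of protein folding, 2 were called lower in spn1 K192N and 9 in spn1 141–305 by limma, and none higher, which is 3.39% and 15.3% beside 4.80% and 18.8% of all tested genes. Their medians were −0.08 in either mutant. The J proteins APJ1, XDJ1 and JJJ1 were called lower in spn1 141–305, with log2 fold changes of −0.24, −0.21 and −0.22, and so was BTN2, which sorts misfolded proteins into deposits, with −0.16 (adjusted p = 0.0266). All 4, which were picked as called genes, had every spn1 141–305 library below every wild-type library, as did 45.0% of all genes. Among 11 other mitochondrial folding and import genes, none was called in either mutant. By limma, 3 had an unadjusted p below 0.05 in spn1 K192N and 0 in spn1 141–305, beside 23.8% and 35.8% of all tested genes. Between the mutants 9 of the 11 lay above 0, with a median of 0.05, beside 2181 of all 5954 tested genes, with a median of −0.02. The genes named here outside the naming rule were chosen after their values were seen.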
